A study of Rattus norvegicus with 6 samples.

Results

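The rows examined here are the miRNAs that the deposited table lists without the rat prefix "rno-", under a miRNA number and a suffix x, y or z, such as miR-140-y. They were chosen by their summed reads, as the rows of this class with at least 60 reads over the 6 libraries used, and 42 rows with the suffix x, 69 with y and 31 with z met the limit. Together they are 45.7% of the 311 rows named in this way, in a table of 867 rows. The libraries are small RNA from exosomes isolated by ultracentrifugation from the serum of male Sprague-Dawley rats aged 6 to 8 weeks on a normal diet. NXT-Exo came from rats gavaged with 1000 mg/kg/d of Naoxintong Capsule (NXT), a polyherbal preparation, and gave 5 libraries (replicates 1 to 5), while Ctl-Exo came from rats gavaged with 5 mL/kg/d of saline and gave 1 library here (replicate 5). The titles state 7 days of dosing for all 6 libraries, but another field gives 7, 8, 9, 10 and 11 days for the NXT-Exo replicates in order and also 11 days for the Ctl-Exo replicate. The labels do not say whether a library holds the serum of 1 rat or of several, so the spread between libraries may be partly technical.

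miRNAs are short RNAs cut from the arms of a hairpin precursor, and the bases near their start, the seed, pair with target mRNAs. A miRNA is often present as several variants that differ by a few bases at an end, and enzymes can add A or U to the 3′ end of a finished miRNA, so that its last bases are not those of the hairpin. Mature tRNAs carry the letters CCA at their 3′ end. Of the miRNAs found in serum, miR-486 and miR-451 are abundant in red blood cells, and miR-122 is the main miRNA of liver.

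The most abundant of the selected rows, miR-140-y, and the rat-named row of the same number and arm are shown first, with the seed (bases 2 to 8) in capitals and T for U as in the deposited table.
miR-140-y: aCCACAGGgtagaaccacggact
rno-miR-140-3p: tACCACAGggtagaaccacgg
The listed miR-140-y began 1 base further into the sequence and ended 3 bases further on, so that its seed was CCACAGG and not ACCACAG.

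The most common type kept the start of the rat-named row and ran past its 3′ end. Examples follow, except for miR-29-y, which kept the start but was shorter than its rat-named row. In the following rows, capitals mark the final bases that are not in the RefSeq hairpin (GRCr8), and the hairpin's own letters at these positions, in capitals, stand beside 3 of them.
miR-92-y: tattgcacttgtcccggcctgtA
rno-miR-92a-3p: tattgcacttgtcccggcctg
miR-23-y: atcacattgccagggatttccaaT
rno-miR-23a-3p: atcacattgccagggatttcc
miR-210-y: ctgtgcgtgtgacagcggctgaAT
Mir210 hairpin: cugugcgugugacagcggcugaUC
miR-451-x: aaaccgttaccattactgagtttT
Mir451a hairpin: aaaccguuaccauuacugaguuuA
miR-29-y: tagcaccatctgaaatcggAA
Mir29a hairpin: uagcaccaucugaaaucggUU
miR-127-y: tcggatccgtctgagcttggcAT
miR-181-y: accaccaaccgttgactgtaA

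Other rows differed from the rat-named row inside the sequence. Capitals mark the substituted bases, which are A13C for miR-339-x and T1A and T22G for miR-183-x, given as the rat-named base, the position from 1 at the 5′ end of the row without prefix, and its base there.
miR-339-x: tccctgtcctccCggagctcacga
rno-miR-339-5p: tccctgtcctccAggagctcacg
miR-183-x: AatggcactggtagaattcacGg
rno-miR-183-5p: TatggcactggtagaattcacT

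The last type ended in CCA, in capitals here, and its most abundant rows had no rat-named row of the same number.
miR-3968-z: atcccactcctgacaCCA
miR-1260-z: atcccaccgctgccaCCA
miR-4454-z: tcgaatccgagtcacggcaCCA
miR-7977-z: ttcccggccaatgcaCCA
miR-4286-z: accccactcctggtaCCA
miR-5100-z: tcgaatcccagcggtgcctCCA

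Listed reads per library ran from 1168686 to 3781718 in the NXT-Exo libraries, against 1890463 for Ctl-Exo 5. Counts were scaled to CPM, library-scaled counts with edgeR's TMM factors, where a single read came to 0.261 to 0.782 CPM for NXT-Exo and 0.544 CPM for Ctl-Exo 5. The selected rows held 731888 of 15576618 listed reads (4.70%), and the other rows without prefix together brought this only to 4.72%. The share was 4.64%, 4.94%, 4.58%, 4.80% and 4.88% in NXT-Exo 1 to 5 (4.77 ± 0.151%, SD, n = 5) and 4.08% in Ctl-Exo 5 (Wilson 95% interval 4.05% to 4.10%, which covers counting error only). Ctl-Exo 5 was the lowest of the 6 libraries. Without miR-140-y the share was 2.80% to 3.00% in NXT-Exo against 2.69% in Ctl-Exo 5, so Ctl-Exo 5 was still the lowest, by a smaller distance. Of 4 lists of rat-named marker miRNAs, summed, Ctl-Exo 5 lay outside the NXT-Exo range for 3 and inside it for the red blood cell list. The liver list (4 rows, 1 of them at 0 in a library) had 10889 to 24379 CPM in NXT-Exo against 7596 in Ctl-Exo 5, the platelet and white blood cell list (8 rows) 22195 to 26111 against 27071, the muscle list (6 rows, 1 of them at 0 in a library) 193 to 258 against 180, and the red blood cell list (5 rows) 157726 to 260276 against 210422. Their part in the results below was not tested, and in serum more exosomes of a tissue cannot be told apart from more of a miRNA per exosome.

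The reads were concentrated in few rows. miR-140-y alone held 37.7% of the reads of the selected rows, the 5 most abundant 69.7% and the 10 most abundant 80.3%, while the median row had 371.5 reads. All but 3 of the rows were detected in all 6 libraries. miR-181-y had 0 reads in Ctl-Exo 5, and miR-214-z and miR-351-y had 0 reads in NXT-Exo 4, the library with the fewest reads. At the limit, miR-351-y (62 reads), miR-3558-y (61) and miR-6328-z (61) were just inside and miR-186-x (59), miR-17-y (58) and miR-25-x (57) just outside.

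miR-140-y comes from the 3′ arm of miR-140, a miRNA best known from cartilage. It had 16494, 20404, 16995, 18251 and 18696 CPM in NXT-Exo 1 to 5 (18168 ± 1538) and 14284 CPM in Ctl-Exo 5. Ctl-Exo 5 was below all 5 NXT-Exo libraries, with a log2 difference of 0.35 on the log2(CPM + 1) scale, and rno-miR-140-3p was also higher in the NXT-Exo mean, by 0.28. Such a position was common, since 34 of the selected rows (23.9%) had Ctl-Exo 5 as their lowest library and 22 (15.5%) as their highest, against 21.6% and 15.8% of the 467 rows of the table with at least 60 reads. The ratio between the rows was 157%, 160%, 154%, 129% and 155% in NXT-Exo against 143% in Ctl-Exo 5, inside the range of NXT-Exo. miR-486-x, the variant of the abundant red blood cell miRNA miR-486 with T9G, had 4883 to 7719 CPM in NXT-Exo (6226 ± 1238) against 6018 CPM in Ctl-Exo 5, also inside the range. Its reads were a nearly constant 2.59% to 3.14% of those of rno-miR-486 in NXT-Exo against 2.90% in Ctl-Exo 5. miR-744-x, for which the table has no rat-named row, had 3056 to 4045 CPM in NXT-Exo against 3557 CPM in Ctl-Exo 5.

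miR-574-y, also without a rat-named row, stood out among the next most abundant rows. It had 2370, 3019, 2211, 2824 and 2690 CPM in NXT-Exo 1 to 5 (2623 ± 330.2) and 1827 CPM in Ctl-Exo 5, below all 5 (log2 difference 0.52, edgeR's adjusted p = 0.81). miR-92-y matched the Mir92a1 hairpin of the miR-17/92 cluster up to its last base, which does not settle its hairpin of origin. It had 2078 to 3742 CPM in NXT-Exo against 2511 in Ctl-Exo 5, and miR-23-y had 673 to 984 CPM and 848. Both lay inside the NXT-Exo range. The same held for miR-378-y (1379 to 1834 CPM against 1515), for miR-1983-z (682 to 1005 against 973) and for miR-486-y (640 to 1118 against 864). miR-3968-z, which ends in CCA, had 670 to 1146 CPM in NXT-Exo against 648 CPM in Ctl-Exo 5, below all 5.

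**Figure D1:**
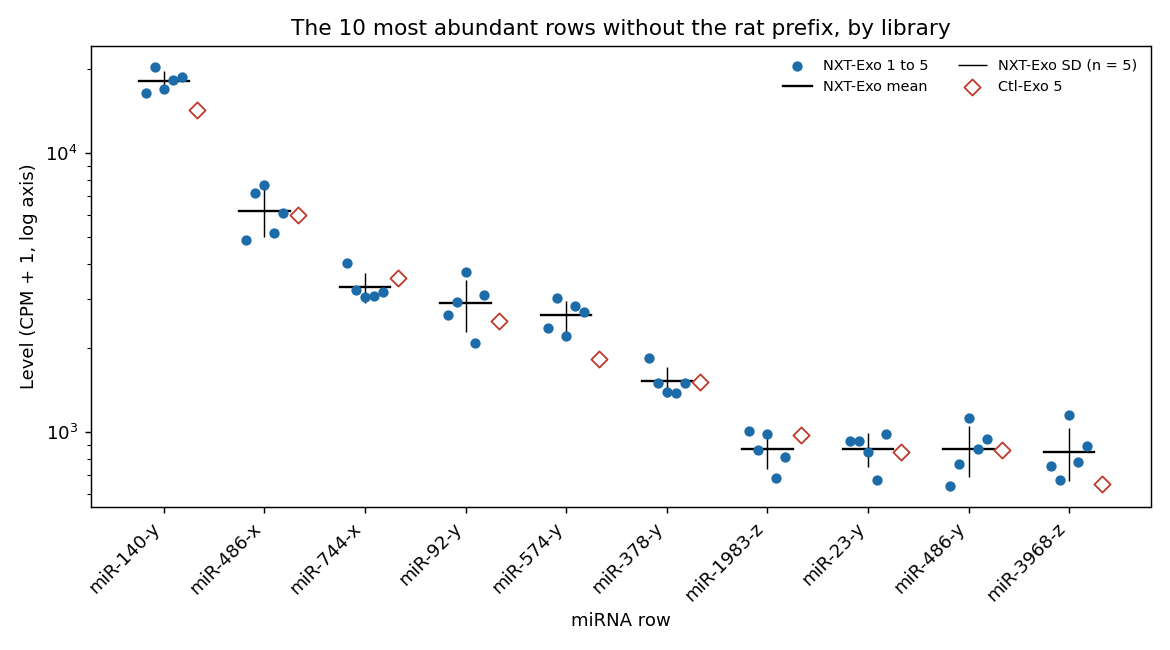
Levels (CPM + 1, log axis) of the 10 most abundant rows without prefix, with 1 point for each NXT-Exo library, a line at their mean, a bar of 1 SD and a diamond for Ctl-Exo 5. Ctl-Exo 5 sits below all 5 NXT-Exo libraries for miR-140-y, miR-574-y and miR-3968-z and among them for the other 7, and it was below all 5 in 21.6% of all rows with at least 60 reads.

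The suffix followed the arm of the hairpin. The sources used here do not define x, y and z, but of the 30 rows with x that aligned to a rat-named row of the same number (at least 15 bases of overlap with at most 3 mismatches), 28 aligned to a 5p row, 0 to a 3p row and 2 to a row with no arm in its name. Of the 56 aligned rows with y, 55 aligned to a 3p row, 0 to a 5p row and 1 to a row with no arm. The 15 aligned rows with z were split into 6, 6 and 3 for 5p, 3p and no arm. Position in the RefSeq hairpins gave the same picture, with 26 rows with x nearer the 5′ end of a hairpin and 0 nearer its 3′ end, 49 rows with y nearer the 3′ end and 0 nearer the 5′ end, and 6 and 8 rows with z. The rows with y held 65.8% of these reads, those with x 27.9% and those with z 6.38%.

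Long sequences were more frequent than among the rat-named rows, although the median length was 22 bases in both. At least 23 bases were listed for 67 of the selected rows (47.2%), against 65 of the 290 rat-named rows with at least 60 reads (22.4%). This was 52.4% for x, 53.6% for y and 25.8% for z. Among the rows with z a group of 8 had 18 bases, a length found for 1 row with x, 0 with y and 1 of the 290 rat-named rows. T, the most frequent first base of animal miRNAs, began 45.8% of the selected rows and 43.4% of the rat-named rows.

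**Figure D2:**
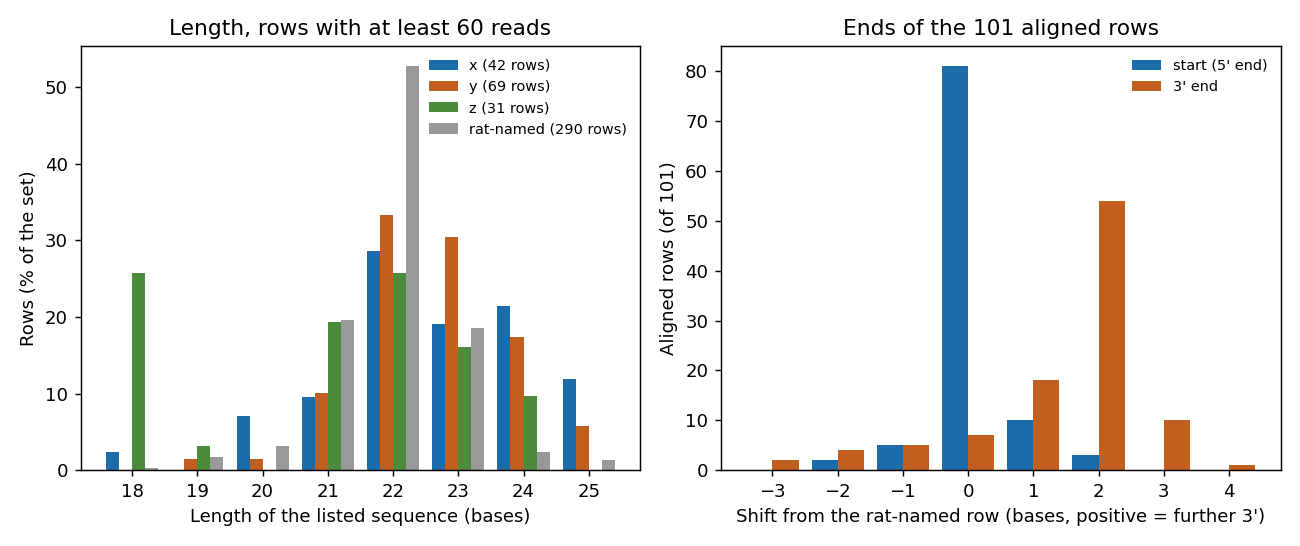
Left, the share of rows of each listed length in bases, for the suffixes x, y and z and for the 290 rat-named rows with at least 60 reads. Right, how many of the 101 aligned rows had their start and their 3′ end moved by a given number of bases from the rat-named row, with 81 starts at 0 and 54 of the 3′ ends at +2.

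Most of the rows were near-copies of a rat-named row. A rat-named row of the same number was listed for 112 of them, and 101 aligned to one (77.3% of the selected reads). Of these 101, 76 had the same start and another 3′ end, 17 had a moved start and 8 had a substitution before the last 4 bases. Among the 8, miR-215-x was substituted against rno-miR-215 but matched the hairpin of another number, Mir192, up to its last base. The start was unchanged in 81 rows and the seed in 80. The 3′ end was further on in 83 rows, by 2 bases in 54 of them, and in 59 of the 83 the added bases were only A or T. In length, 79 were longer than the rat-named row, 14 equal and 8 shorter. The closing letters AAT were found in 12 of the selected rows (8.45%) and in 1 of the 290 rat-named rows (0.345%).

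Sequence from RefSeq showed the same for the hairpins. The RefSeq table used here (GRCr8) has 419 rat hairpins, with a hairpin of the number for 96 of the selected rows. Of all selected rows, 65 matched a hairpin up to their last 1 to 4 bases, and these rows held 54.0% of the reads. The unmatched tail had 1 base in 29 rows, 2 in 31, 3 in 3 and 4 in 2. It was made of A and T alone in 57 of the 65 rows, with a single T in 19, AT in 12, AA in 10, a single A in 9 and TT in 5 as the most frequent tails. Another 9 rows matched a hairpin over their whole length, 13 with 1 to 3 mismatches, 2 ran past the end of the hairpin given and 53 matched none, among them 46 whose number has no hairpin in the table. Of the 290 rat-named rows, 254 matched a hairpin over their whole length, 1 had an unmatched tail, 8 had mismatches and 27 matched none. All 266 rat-named rows found by name among the RefSeq mature miRNAs were listed with the RefSeq sequence, and 0 of the selected rows had the sequence of a RefSeq rat mature miRNA. Rat-named rows are thus listed with reference sequences, so their whole matches, and the 0, follow largely from how rows are named. These comparisons use 1 listed sequence per row, and the sources used here do not say whether a row counts reads of other lengths.

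The 30 rows without a rat-named row of the number (7 with x, 7 with y and 16 with z) held 20.1% of the reads. They included miR-744-x, miR-574-y, miR-1983-z and miR-3968-z among the 10 most abundant. Of the rows that aligned to no rat-named row of their number, 5 aligned to one of another number with at most 3 mismatches, among them miR-422-z, which aligned to rno-miR-378a-3p with the substitutions A12G and A16G, and shared its seed with miR-378-y and miR-378-z. A further 11 rows had a rat-named row of the number but did not align to it, among them miR-486-y, miR-215-y, miR-185-y and miR-331-x, and 6 of the 11 matched no hairpin. In all, 16 seeds were shared by at least 2 of the selected rows.

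Rows ending in CCA were 9 of the selected rows (6.34%), 7 with z and 2 with y, against 6 of the 290 rat-named rows (2.07%). They were not all alike, since miR-877-y matched a rat hairpin over its whole length, and miR-455-y and miR-6328-z aligned to a rat-named row. The summed level of the 9 rows was 1806, 1526, 2156, 1809 and 1729 CPM in NXT-Exo 1 to 5 and 1460 CPM in Ctl-Exo 5, the lowest of the 6. miR-3968-z, miR-1260-z and miR-4454-z were the most abundant of them. miR-7977-z had 108, 121, 172, 132 and 110 CPM in NXT-Exo (129 ± 25.9) against 68.6 CPM in Ctl-Exo 5, below all 5. Ctl-Exo 5 was likewise below all 5 in 21.6% of the 467 rows of the table with at least 60 reads. Reads of tRNA and other common RNA families had been filtered out by the authors before counting. Whether the rows ending in CCA still hold pieces of tRNA was not tested.

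Set beside the rat-named row, the aligned rows were mostly at a small part of its level. The median ratio of summed reads was 5.08% over the 101 rows. It was under 10% for 67 rows, 28 of them under 1%, from 10% to 100% for 26, and at or above 100% for 8 (9 by mean CPM, which adds miR-381-y).

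The lowest ratios were to abundant rat-named rows. miR-26-z had 77 reads against 1094638 for rno-miR-26a-5p (0.007%), miR-143-z 75 against 150200 for rno-miR-143-3p (0.050%), and miR-99-z 74 against 107752 for rno-miR-99a-5p (0.069%). miR-22-y and miR-24-z followed, with 0.118% and 0.119%. In miR-26-z and miR-143-z the final bases counted above as unmatched do stand in the hairpin, 1 base further on, so that these listed sequences lack a single base of it. Of the 36 rows with an unmatched tail of at least 2 bases, these 2 were the ones in which skipping 1 base of the hairpin matched the row to its end.

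The highest ratios other than that of miR-140-y were to rat-named rows with few reads. miR-421-y had 205, 175, 154, 76 and 202 reads in NXT-Exo 1 to 5 and 116 in Ctl-Exo 5, against 6 to 21 and 7 reads for rno-miR-421-3p. Its listed sequence continued for 3 bases, CGC, past the rat-named one and matched the Mir421 hairpin over its whole length. miR-193-y, which likewise matched its hairpin throughout, had 83 to 189 reads in NXT-Exo against 131 in Ctl-Exo 5, against 9 to 15 and 7 for rno-miR-193b-3p.

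miR-466-y had 27.4 to 49.0 CPM in NXT-Exo against 35.9 in Ctl-Exo 5, while rno-miR-466c-3p had 0 reads in all 5 NXT-Exo libraries and 6 in Ctl-Exo 5. miR-466-x had 53 to 121 reads and 77, against 0 to 19 and 4 for rno-miR-466b-5p. miR-15-x had 35 to 120 and 36 reads, against 1 to 24 and 0 for rno-miR-15a-5p. miR-466 is a family of repeat-rich, near-identical rodent miRNAs, so the assignment of its reads to 1 row is uncertain.

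**Figure D3:**
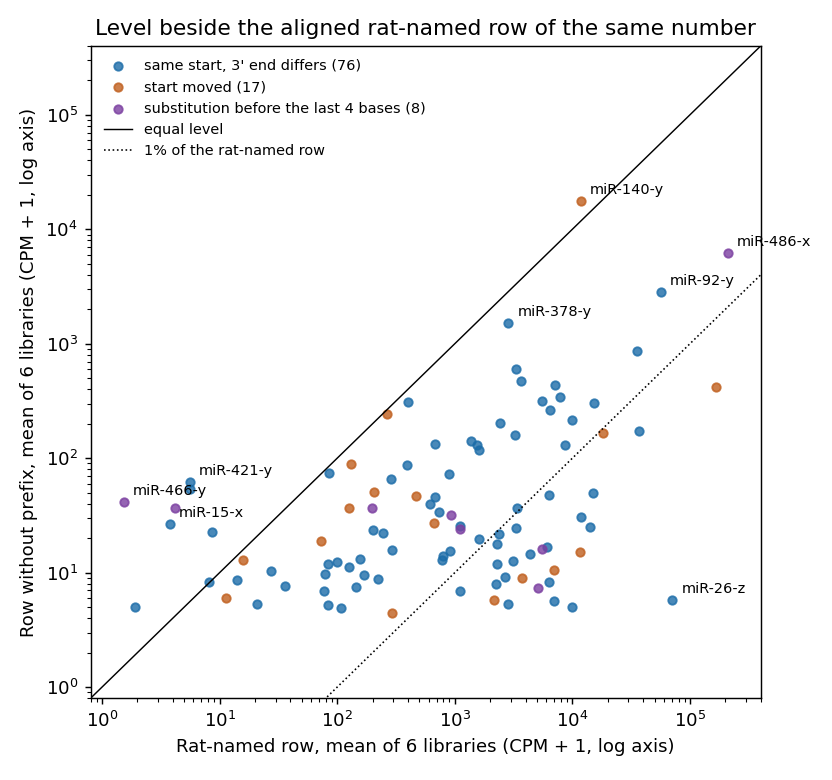
Mean level over the 6 libraries (CPM + 1, log axes) of each of the 101 aligned rows against its rat-named row, coloured by how the listed sequences differ. Most points lie between the line of equal level and the line at 1%, miR-140-y is the only abundant row above equality, and miR-26-z lies furthest below.

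For the comparison of NXT-Exo with Ctl-Exo, a row was counted as apart on 2 conditions, a ratio of the NXT-Exo mean to Ctl-Exo 5 of 2 or more, or of 0.5 or less, on the CPM + 1 scale, and a value of Ctl-Exo 5 beyond every NXT-Exo library. With 1 Ctl-Exo library this count has no test. Of the selected rows, 10 were apart and higher in NXT-Exo (7.04%), against 4.71% of the 467 rows of the table with at least 60 reads and 5.32% of the 865 rows with a read. Apart and lower were 5 (3.52%), against 1.71% and 6.13%. The limit of 60 reads sums 5 NXT-Exo libraries and 1 Ctl-Exo library, so rows high in NXT-Exo passed it more easily, and the counts stand as a description. The median log2 difference was 0.09 over the selected rows, 0.03 over the 467 and 0.16 over the 865.

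In edgeR's quasi-likelihood test, in which the spread comes from the 5 NXT-Exo libraries and Ctl-Exo 5 is assumed to vary like them, 0 of the selected rows passed an adjusted p of 0.05, and of all 865 rows 0% passed as higher and 0% as lower. At an unadjusted p under 0.05 there were 15 of the selected rows (10.6%), 11 higher and 4 lower, against 5.32% of the 865. The 865 include rows with too few reads to be selected, so these percentages do not compare like with like. These 15 were miR-574-y, miR-21-x, miR-143-y, miR-223-y, miR-7977-z, miR-335-y, miR-183-x, miR-181-x, miR-125-y, miR-451-x, miR-127-y, miR-5100-z, miR-29-y, miR-378-z and miR-181-y. DESeq2 likewise gave 0 at the adjusted threshold, and 13 selected rows unadjusted. With edgeR's fit limited to rows that met the read limit, 10 selected rows had an unadjusted p under 0.05. The smallest adjusted p among the selected rows was 0.81 by edgeR.

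**Figure D4:**
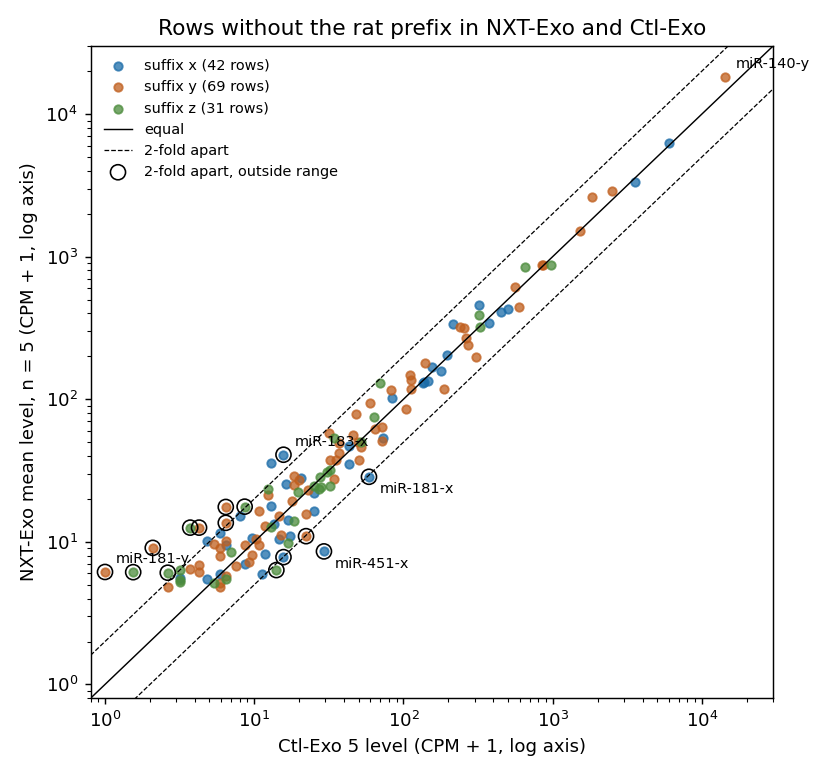
NXT-Exo mean (n = 5) against Ctl-Exo 5 for all selected rows (CPM + 1, log axes), coloured by suffix, with the line of equality, dashed lines 2-fold apart and rings around the 15 rows counted as apart. The ringed rows all lie in the lower part of both axes, from 64 to 569 summed reads.

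All 15 rows apart were of low level, the most abundant of them at rank 60 by mean level, and 4 had 3 reads or fewer in Ctl-Exo 5. By suffix, the 10 higher rows were 1 with x, 5 with y and 4 with z, and the 5 lower rows 3, 1 and 1. For the 12 of the 15 that aligned to a rat-named row, the log2 difference of that rat-named row was between -0.21 and 0.53, and 0 of the 12 rat-named rows were 2-fold apart.

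miR-181-y, from the 3′ arm of a miR-181 hairpin, had the largest log2 difference with a pseudocount of 1 CPM, 2.62. The value depends on the pseudocount set against 0 reads, with 5.71 for 0.1 CPM and 0.60 for 10 CPM, where miR-125-x (1.02), miR-183-x (1.01) and miR-125-y (0.78) were among the rows above it. It had 10, 23, 6, 12 and 13 reads in NXT-Exo 1 to 5 and 0 in Ctl-Exo 5, which is at least 3.15-fold higher than the floor of 3 reads in Ctl-Exo 5 (1.63 CPM). rno-miR-181a-2-3p, of which it is a version 2 bases longer, had 26 to 75 reads and 37 reads, a log2 difference of -0.04.

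miR-29-y is a version of miR-29a, a miRNA that targets collagen mRNAs, with the last bases replaced by AA. It had 24, 25, 3, 17 and 39 reads in NXT-Exo against 2 in Ctl-Exo 5, a ratio of CPM of 7.41 with a counting interval of 2.03 to 27.0. In NXT-Exo 3 it was close to Ctl-Exo 5. miR-378-z had 21, 13, 2, 10 and 23 reads against 1, a ratio of 9.41 with an interval of 1.66 to 53.3, and was also near Ctl-Exo 5 in NXT-Exo 3. miR-422-z, which shares its seed, had 18, 19, 6, 6 and 24 reads against 3, a ratio of 3.11 with an interval of 1.06 to 9.13.

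The 2 higher rows with the most even NXT-Exo libraries were tailed with AT. miR-210-y is a form of miR-210, which cells make more of when oxygen is low, and had 37, 46, 29, 13 and 52 reads in NXT-Exo (12.6 ± 1.48 CPM) against 10 reads (5.44 CPM) in Ctl-Exo 5, a log2 difference of 1.08. rno-miR-210-3p differed by -0.05, and the ratio of miR-210-y to it was 8.84% to 16.4% in NXT-Exo against 5.35% in Ctl-Exo 5. miR-127-y, from an imprinted gene cluster, had 27, 43, 26, 13 and 54 reads (11.6 ± 2.05 CPM) and 6 reads (3.27 CPM) in Ctl-Exo 5, a log2 difference of 1.56, and its ratio to rno-miR-127-3p was 6.44% to 12.9% against 3.31%.

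Among the other higher rows, miR-183-x had 201, 140, 52, 53 and 96 reads in NXT-Exo (39.8 ± 17.6 CPM) against 27 reads (14.7 CPM) in Ctl-Exo 5, a log2 difference of 1.38. miR-125-y had 52, 84, 29, 19 and 47 reads (16.6 ± 5.26 CPM) against 10 reads (5.44 CPM), a difference of 1.45. By number and alignment miR-183-x was set beside miR-183, known from sensory cells, and miR-125-y beside a 3′ arm of miR-125b. The listed miR-183-x was substituted at its first base and near its 3′ end, and its origin was not tested. miR-21-z, with the substitutions A16G and A22G against rno-miR-21-5p, had 10.2 to 28.9 CPM against 7.62 (1.03). miR-5100-z, which ends in CCA, had 9.34, 9.04, 25.2, 7.04 and 7.30 CPM against 2.72 (1.76), and NXT-Exo 3 was well above the other NXT-Exo libraries.

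Of the lower rows, miR-451-x differed most. It is a form of the red blood cell miRNA miR-451 that is 2 bases longer, and had 9, 22, 21, 10 and 42 reads in NXT-Exo (3.00, 6.63, 9.44, 7.82 and 10.95 CPM) against 52 reads (28.3 CPM) in Ctl-Exo 5. All 5 NXT-Exo libraries were below the Wilson interval of Ctl-Exo 5, 21.6 to 37.1 CPM (log2 difference -1.77, edgeR's adjusted p = 0.81). That interval covers counting error only, and the row was counted as apart because Ctl-Exo 5 lay above all 5, so the interval adds no separate support. rno-miR-451-5p differed by 0.05, so the ratio of miR-451-x to it was 0.184% to 0.556% in NXT-Exo against 1.29% in Ctl-Exo 5.

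miR-181-x, tailed with AT on rno-miR-181d-5p, had 21.6 to 30.5 CPM in NXT-Exo (27.6 ± 3.83) against 57.7 CPM in Ctl-Exo 5 (-1.04). miR-150-x is a form of miR-150, which is abundant in lymphocytes, and had 6.00 to 7.82 CPM against 14.7 (-1.01), while rno-miR-150-5p differed by -0.06. miR-324-y had 8 to 45 reads against 39 (-1.02), and miR-5119-z, with no rat-named row, had 2.70 to 8.73 CPM against 13.1 (-1.15). The log2 differences of miR-150-x, miR-324-y, miR-181-x and miR-21-z were close to the limit of 1, and these rows were not counted as apart when certain NXT-Exo libraries were left out, miR-150-x without replicate 1 or 4, miR-324-y without 2 or 4, miR-181-x without 3 and miR-21-z without 4.

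**Figure D5:**
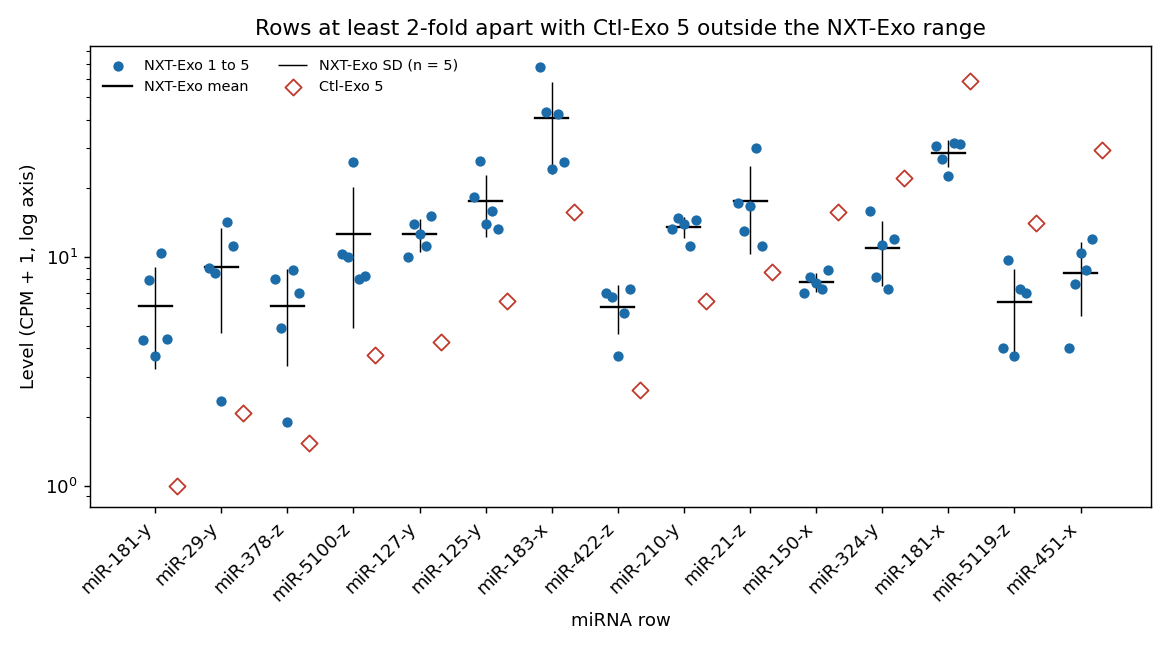
Levels (CPM + 1, log axis) by library of the 15 rows counted as apart, from the largest positive to the largest negative log2 difference, with points for NXT-Exo 1 to 5, a line at their mean, a bar of 1 SD and a diamond for Ctl-Exo 5. The diamond lies below all 5 points in the 10 higher rows and above all 5 in the 5 lower rows, and for miR-181-y it marks 0 reads.

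The ratio to the rat-named row, which does not depend on library scaling, was compared in the same way on log2 of reads plus 0.5. Of the 101 aligned rows, 14 were 2-fold apart with Ctl-Exo 5 outside the NXT-Exo range (13.9%), 10 higher and 4 lower in NXT-Exo, against 19.4% of all 191 aligned rows without prefix, which include rows with fewer reads. The 10 higher ratios were those of miR-466-y, miR-146-z, miR-93-x, miR-210-y, miR-127-y, miR-29-y, miR-26-z, miR-378-z, miR-181-y and miR-6328-z, and the 4 lower ones those of miR-15-x, miR-122-x, miR-451-x and miR-150-x. In 7 of the 14 the level of the row without prefix was itself counted as apart, miR-93-x was outside the NXT-Exo range by less than 2-fold, and in the other 6, miR-466-y, miR-146-z, miR-26-z, miR-6328-z, miR-15-x and miR-122-x, Ctl-Exo 5 was inside the range in level. In 3 of these 6 the rat-named row differed by more than 2-fold, by -2.09 on the log2 scale for rno-miR-466c-3p, by 2.12 for rno-miR-15a-5p and by 1.64 for rno-miR-122-5p, the first 2 with 0 reads in some libraries. miR-122-x had 120, 45, 10, 16 and 50 reads in NXT-Exo (16.7 ± 13.5 CPM) against 22 reads (11.98 CPM) in Ctl-Exo 5.

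Rows also differed in how far the NXT-Exo libraries lay apart. The median SD of log2(CPM + 1) among the 5 libraries was 0.36 for the selected rows and 0.29 for the rat-named rows with at least 60 reads, which had more reads. The largest were 1.58 for miR-125-x, with 5.47 to 90.4 CPM, 1.52 for miR-450-x, with 0.899 to 29.5 CPM, 1.20 for miR-214-z and 1.19 for miR-351-y, each with 1 library at 0 reads, and 1.13 for miR-339-x, with 9.38 to 72.4 CPM. Of these 5, miR-125-x and miR-339-x carried a substitution before the last 4 bases, and rno-miR-125a-5p and rno-miR-339-5p had at least 10 times their reads over the 6 libraries.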

How the data were processed

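With ACGT101-miR the authors filtered the reads (adapter dimers, low complexity, common RNA families) and deposited raw counts of reads per miRNA row and library, with a class that separates rat-named, other known and predicted miRNAs. Deposited TPM values are the counts times a constant per library, with 0.01 for 0 reads, and served as an alternative denominator. Per the labels the genome build is Rnor_6.0. The aligner and the miRNA database are not given in the sources used here. A further 8 per-sample columns in the table were not used.

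From the counts, TMM factors and quasi-likelihood tests (p-values adjusted by Benjamini-Hochberg over 865 rows) were computed with edgeR 4.0.16 in R 4.3.3, and DESeq2 1.42.0 gave the alternative. The rest was done in Python 3.11.15 (numpy 2.4.6, pandas 2.3.3, scipy 1.17.1 and matplotlib 3.10.9). Fold comparisons used log2(CPM + 1), and ratios to rat-named rows used reads + 0.5. The rat-named row was the best ungapped alignment of the same number, with at least 15 bases and at most 3 mismatches. Hairpin and mature sequences are from RefSeq (GRCr8), another build than the authors', so no coordinates are given.

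The rows named were the 10 most abundant, those 2-fold apart, the 5 highest and 5 lowest ratios, the 5 largest SDs and those next to the limit of 60 reads. The rows ending in CCA, miR-122-x, miR-381-y and the rows named for their ratio, alignment or seed alone were added after values were seen. Lists of plant and of invertebrate miRNA numbers held 0 of the selected rows, and the invertebrate list held 1 row without prefix under the read limit, miR-71-x. Such lists leave out numbers that mammals share, so whether any row came from another species was not tested. Members and lists were chosen with earlier results of these data known. The alternatives were other pseudocounts, scalings, read limits and alignment limits, other rat-named partners, the median, no range condition and leaving out each NXT-Exo library.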

Additional observations from a re-analysis of the deposited data

Results flagged for a closer look

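Among the 5 NXT-Exo libraries, 43 sets of values (42 named rows and the share of reads) were examined for a library far from the others by Dixon's criterion, a gap to the next library of more than 0.71 of the range, and 5 met it. Dixon's criterion marks about 1 in 20 sets by chance, but miR-450-x and miR-339-x were among the 5 rows named for the largest SD over the same libraries, so the 5 cannot be set against that rate. miR-744-x was at 4045 CPM in NXT-Exo 1 and at most 3236 in the other 4 libraries (gap 0.818 of the range), and miR-378-y at 1834 CPM in NXT-Exo 1 and at most 1497 (0.740). miR-5100-z was at 25.2 CPM in NXT-Exo 3 and at most 9.34 (0.873), and miR-339-x at 72.4 CPM in NXT-Exo 3 and at most 16.3 (0.890). miR-450-x was at 29.5 CPM in NXT-Exo 5 and at most 8.60 (0.731).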

How the results depend on the processing

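With 1 Ctl-Exo library, and 64 to 569 summed reads behind each row apart, the precision of single rows is limited by depth, and counting intervals cover counting error only. The 15 rows apart (10 higher, 5 lower) were 2 (1 higher, 1 lower) with a pseudocount of 10 CPM, which shrinks differences at low levels. Scaling to the listed total gave 13, with 11 higher and 2 lower. Other settings gave 17 (0.1 CPM), 15 (median-of-ratios factors), 13 (median), 17 (no range condition), 14 to 16 (without 1 NXT-Exo replicate), 20 of 175 rows (at least 30 reads) and 10 of 114 (at least 120 reads). edgeR's adjusted count was 0 under every alternative run, with 10 to 19 rows at an unadjusted p under 0.05. The 9 rows at or above their rat-named row were 7 to 10, the 14 ratios apart were 13 to 16, the 101 aligned rows were 81 (of 114, at least 120 reads) to 101, and the NXT-Exo share was 4.73% to 4.81%. Of 420 values of single rows, 406 stayed within 1 SD of the NXT-Exo replicates, 14 moved further (12 with a pseudocount of 10 CPM and 2 with 0.1 CPM), and 0 changed sign while 2-fold apart. No paired analysis was run, because the paper states that rats were assigned to the groups at random. The replicate number 5 that NXT-Exo and Ctl-Exo have in common does not make a pair.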
